A study of Mus musculus with 6 samples.

Results

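Macrophages rich in Trem2 and Gpnmb transcripts were examined in single-cell RNA sequencing of mouse hearts after myocardial infarction. They were chosen by a rule on raw UMI counts (counts of distinct captured transcripts). A cell needed at least 1000 UMIs, at least 200 genes and at most 20% mitochondrial UMIs. It needed 5 or more UMIs of Csf1r, Cd68, Fcgr1 and Lyz2 together, less than 1% of its UMIs from the neutrophil genes S100a8 and S100a9, and at most 2 UMIs of Col1a2 and Cdh5. It could hold at most 3 UMIs of the resident macrophage genes Lyve1, Folr2, Timd4 and Cd163, and fewer than 10 UMIs of Ifit1, Ifit2, Ifit3 and Rsad2. Cells meeting these conditions are called macrophages here, and those with 4 or more UMIs of Trem2 and Gpnmb together are the Trem2 Gpnmb macrophages. There were 2356 of them among 8357 macrophages, 30014 filtered cells and 34940 deposited cells. Because the rule used measured counts of 18 genes, the levels of those genes are a description and were not tested.

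The study compared cells other than cardiomyocytes from the hearts of wild-type (WT) mice of strain C57BL/6JRj with those of the Trpm4 knockout (KO) strain B6.Cg-Trpm4tm1.2-PG. Trpm4 encodes a calcium-activated cation channel. Male mice aged 8 to 12 weeks had either a sham operation, sampled after 24 h, or a tied-off left anterior descending artery (LAD ligation), sampled after 24 h or 72 h. Cells of 4 mice were pooled into each of the 6 libraries, so each group had 1 library and comparisons between libraries have no replicate check. No sham library at 72 h was analysed here, so time after the operation and ligation cannot be told apart at 72 h. Hearts were digested with enzymes, passed through meshes that held back cardiomyocytes, and viable cells (positive for Calcein-AM, negative for DAPI) were sorted for 10x 3′ libraries, per the labels' protocols.

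TREM2 is a surface receptor of macrophages and microglia that binds lipids, lipoproteins and cell debris and signals through the adaptor TYROBP. GPNMB is a transmembrane glycoprotein that accumulates in macrophages with a heavy lysosomal load, such as foam cells. Macrophages with both are known from fatty tissue, atherosclerotic plaques and damaged brain and heart, where they take up dead cells and lipid, break them down in lysosomes and export cholesterol on apolipoprotein E.

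The KO library at 72 h stood apart in depth. Its macrophages below the Trem2 and Gpnmb minimum had a median of 2116.5 UMIs, against 8791 to 11021 in the other 5 libraries, and 69.8% of them had fewer than 3000 UMIs. They also carried 1493 CPM (UMIs of a gene scaled to a common total per class and library) of 4 hemoglobin genes and 563 CPM of 7 fibroblast genes, where the Trem2 Gpnmb macrophages of that library carried 72.0 and 117 CPM. Trem2 Gpnmb macrophages were deeper, with medians of 9877 UMIs in the KO library at 72 h and 13294.5 to 16415.5 in the others. Libraries shared 118 cell barcodes in all, 19 Trem2 Gpnmb macrophages had a barcode that also occurs in another library, and 0 barcodes were shared between the Trem2 Gpnmb macrophages of any pair of libraries.

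Most Trem2 Gpnmb macrophages came from 72 h after ligation, which supplied 1541 cells (65.4%), against 371 from sham and 444 from 24 h after ligation. At sham there were 231 in WT and 140 in KO, or 23.0% (95% interval 20.5 to 25.8) and 19.7% (16.8 to 22.8) of macrophages. At 24 h after ligation there were 82 in WT and 362 in KO, or 13.4% (10.8 to 16.4) and 24.8% (22.6 to 27.1). At 72 h there were 1071 in WT and 470 in KO, or 53.1% (50.9 to 55.3) and 18.4% (16.9 to 19.9). The WT library at 72 h therefore had the highest share, and its interval overlapped no other. These are exact Clopper-Pearson intervals, and all intervals in this text cover counting error only.

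The shares were also taken at equal depth, with a lower threshold. When each macrophage was thinned to 2000 UMIs and 2 or more thinned UMIs of Trem2 and Gpnmb were required, the 72 h shares became 30.6% (28.6 to 32.7) for WT and 24.9% (22.8 to 27.1) for KO, and 997 of 2556 KO macrophages were too shallow to enter. Of those 997, 989 were below the Trem2 and Gpnmb minimum on full counts and 8 were not, so the KO share rests on a smaller denominator of 1559 cells. The same measure gave 8.11% and 8.39% at sham and 3.18% and 7.88% at 24 h after ligation, in WT and KO. On this scale both 72 h libraries lay above all 4 libraries of 24 h, which the full counts showed for WT alone. Summed over all macrophages with no threshold, Trem2 and Gpnmb together reached 696 CPM (WT) and 529 CPM (KO) at 72 h, against 125 to 219 CPM in the 24 h libraries.

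**Figure D1:**
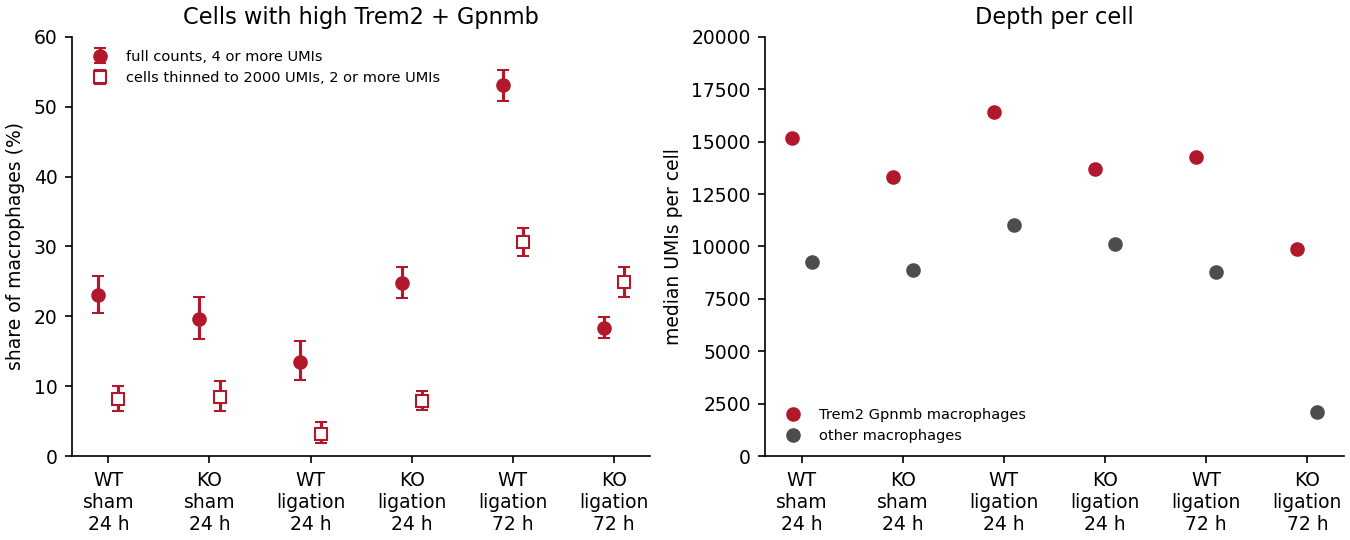
Share of macrophages (%) with high Trem2 and Gpnmb in each library (left; filled circles, full counts with 4 or more UMIs; open squares, cells thinned to 2000 UMIs with 2 or more UMIs; bars, 95% Clopper-Pearson intervals) and median UMIs per cell (right; red, Trem2 Gpnmb macrophages; grey, other macrophages). In KO at 72 h the share was 18.4% on full counts and 24.9% after thinning, and the other macrophages had a median of 2116.5 UMIs.

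The conditions on other cell types removed many cells that also had high Trem2 and Gpnmb. Of 3208 filtered cells with 4 or more UMIs of both genes, 585 exceeded the resident macrophage limit, 157 the interferon limit, 114 the stromal limit and 60 the neutrophil limit, and 27 had too few macrophage UMIs. Among cells that failed the resident limit alone, 246 of 269 (91.4%) in WT and 38 of 56 (67.9%) in KO met the Trem2 and Gpnmb minimum at 72 h, against 26.7% to 55.9% in the 24 h libraries. The cells therefore did not include the Trem2-high macrophages with resident markers. Next to the threshold, 83, 65, 45, 126, 129 and 167 macrophages had 3 UMIs of Trem2 and Gpnmb, and 60, 41, 22, 103, 88 and 87 had 4, in the order WT and KO at sham, WT and KO at 24 h after ligation, and WT and KO at 72 h, which all lists of 6 values below follow. Of endothelial cells, which should lack both genes, 0% to 5.88% per library had a Trem2 UMI and 1 cell in all reached the minimum. Their median depth was 3486 to 7110 UMIs.

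Trem2 carried the rule almost alone. Trem2 (ENSMUSG00000023992) stood at 433, 433, 368, 420, 817 and 822 CPM, and 2271 of the 2356 cells reached the minimum on Trem2 UMIs only. Gpnmb (ENSMUSG00000029816) stood at 53.0, 66.1, 19.6, 11.5, 172 and 140 CPM. Both genes were highest in the 72 h libraries, and Gpnmb was lowest 24 h after ligation. No Gpnmb UMI was found in 1675 cells (71.1%), a share of 84.8% and 82.9% at sham, 95.1% and 93.9% at 24 h after ligation, and 60.3% and 63.6% at 72 h. At the depth of these libraries most cells were thus defined by Trem2, and the name Gpnmb fits a minority that was concentrated at 72 h.

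The other 4 markers proposed for these cells were compared with the macrophages below the threshold of the same libraries (3 or fewer UMIs of Trem2 and Gpnmb), called other macrophages below. The markers were chosen with earlier results of these data known, so their p-values are no independent support. The test was edgeR's quasi-likelihood test on counts summed per library and class, with the library as a term and Benjamini-Hochberg adjustment over all genes. Ms4a7, a membrane protein of the MS4A family, stood at 145, 172, 76.8, 87.6, 1012 and 925 CPM, against 89.0, 101, 35.4, 38.4, 225 and 348 CPM in other macrophages. It rose by 1.28 ± 0.20 on the log2 scale (± SE, adjusted p = 0.0049) and was higher in 6 of 6 libraries. Ms4a7 was the only one of the 4 to pass the test, and among cells of 10 or more C1q UMIs it had 0.41 (adjusted p = 0.22).

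Fcrls, an Fc receptor-like gene known from microglia, stood at 45.8, 34.4, 33.3, 25.7, 335 and 299 CPM, against 31.4, 35.05, 6.38, 7.76, 27.0 and 99.1 CPM in other macrophages. In KO at sham both classes had similar levels, and the gap was wide in WT at 72 h. The log2 fold change was 1.71 ± 0.54 (adjusted p = 0.075, higher in 5 of 6 libraries). Apoe, the apolipoprotein that carries exported cholesterol, was at 4765, 5471, 3850, 4630, 15861 and 16243 CPM, against 3295, 4768, 3314, 3982, 5130 and 6637 CPM, with a log2 fold change of 0.70 ± 0.24 (adjusted p = 0.091, higher in 6 of 6). Hmox1, the heme-degrading enzyme heme oxygenase 1, was at 437, 567, 772, 1585, 2493 and 1121 CPM, against 249, 328, 1230, 1234, 818 and 787 CPM, with a log2 fold change of 0.60 ± 0.30 (adjusted p = 0.21, higher in 5 of 6). DESeq2 put Fcrls and Apoe past the adjusted threshold of 0.05. Fcrls, Ms4a7 and Apoe thus stood highest in the cells of the 72 h libraries.

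**Figure D2:**
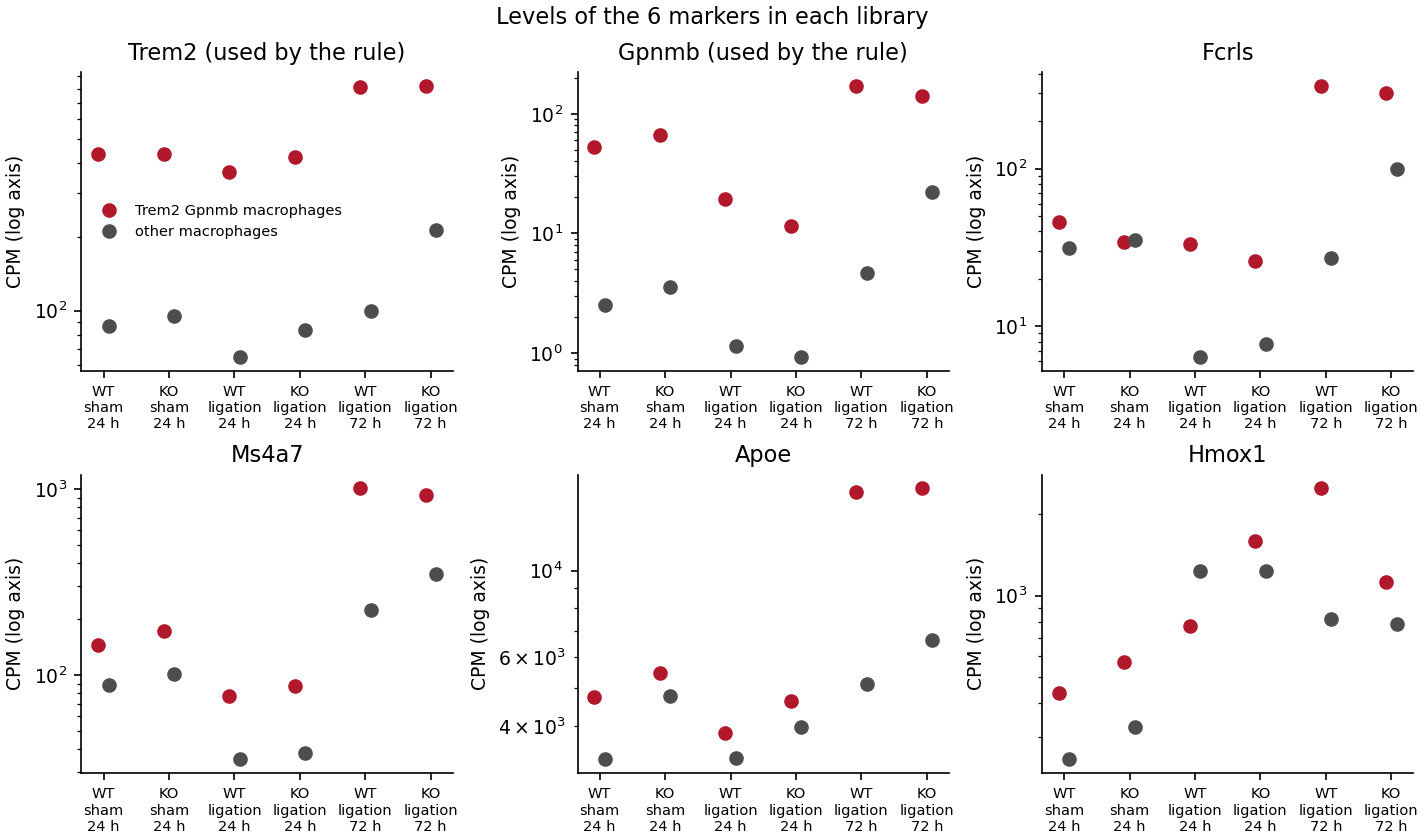
Level (CPM, log axis) of the 6 markers in Trem2 Gpnmb macrophages (red) and other macrophages (grey), 1 point per library. Trem2 and Gpnmb were used by the rule. Fcrls, Ms4a7 and Apoe stood highest in the 72 h libraries, with Fcrls at 335 CPM in WT and 299 CPM in KO.

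Over 10144 genes tested, 1160 (11.4%) rose and 1439 (14.2%) fell in Trem2 Gpnmb macrophages, and the median log2 fold change of all genes was -0.002. The classes of a library differ in depth as given above, and UMI counts of Trem2 and Gpnmb grow with depth. In cells of 5000 to 20000 UMIs only, a setting chosen after seeing the data, 1017 genes rose and 1150 fell. With every macrophage thinned to 2000 UMIs and the cells chosen anew, 249 rose and 338 fell, 15 of 21 lysosomal genes rose, 3 of 7 MHC class II genes fell and 1 of 9 cholesterol synthesis genes fell. In each list below the median is set beside that of all genes, and no list was tested as a set.

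Genes of the lysosome, the acidic compartment where engulfed material is broken down, were mostly higher. Of 22 lysosomal enzymes and membrane proteins tested, 18 rose and 1 fell, with a median log2 fold change of 0.48. Ctsd, the aspartic protease cathepsin D, stood at 2040, 2122, 1068, 1634, 3491 and 2677 CPM, against 860, 918, 621, 887, 971 and 1228 CPM. Both classes had their lowest Ctsd 24 h after ligation, and in every library the Trem2 Gpnmb macrophages had the higher level. Ctsd rose by 1.21 ± 0.13 on the log2 scale (adjusted p = 0.00027).

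Other cathepsins followed. Ctsb, the cysteine protease cathepsin B, stood at 2308, 2945, 1502, 1817, 4978 and 4247 CPM, against 1311, 1765, 1199, 1069, 1599 and 2035 CPM, and rose by 0.92 ± 0.15 (adjusted p = 0.0045). Ctsl, cathepsin L, rose by 1.05 ± 0.10 (adjusted p = 5.9e-05) and Lgmn, the protease that matures cathepsins, by 0.996 ± 0.075 (adjusted p = 7.0e-07). Cd63, a tetraspanin of the lysosomal membrane, stood at 310, 418, 305, 378, 671 and 513 CPM, against 108, 169, 199, 150, 88.0 and 271 CPM, and rose by 1.46 ± 0.32 (adjusted p = 0.026). Its adjusted p was 0.078, 0.070 and 0.069 without the WT sham, the KO sham and the KO 24 h ligation library. All 5 of these genes were higher in 6 of 6 libraries. Ctsk, cathepsin K, had the widest fold of the list, 2.62 ± 0.57 (adjusted p = 0.015), at 1.45 to 28.0 CPM, and the membrane protein Laptm5 fell by 0.28 ± 0.07 (adjusted p = 0.0066).

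The proton pump that acidifies the lysosome moved less. Of 11 V-ATPase subunits tested, 8 rose and 0 fell, with a median log2 fold change of 0.21. The largest was Atp6v1c1 at 0.67 ± 0.06 (adjusted p = 5.2e-06), at 102, 107, 84.8, 79.98, 108 and 93.6 CPM against 64.4, 69.9, 60.2, 49.2, 65.3 and 61.1 CPM. Lysosomal genes were also counted in 2 settings chosen after seeing the data that changed both classes. With cells carrying dendritic or monocyte markers left out of both classes, 16 of 22 lysosomal genes rose and 1 fell, and with both classes limited to cells of 10 or more C1q UMIs, 12 of 21 rose and 1 fell. Over all genes, 645 rose and 763 fell in the first setting, and 335 rose and 483 fell in the second.

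Lysosomal genes are known to share the letters CACGTG, the E-box read by TFEB and related factors, near their start sites. The 250 bases before the start site were searched on both strands in RefSeq promoters of build GRCm38.p6. The letters were present in 6 of 17 matched lysosomal genes (Ctsa, Ctsd, Ctsl, Gla, Lamp1 and Lgmn) and in 2 of 8 V-ATPase genes, against 6.86% of all 27025 genes of the table. They were also present in 2 of 7 matched cholesterol synthesis genes (Dhcr7 and Insig1) and in 0 of 4 MHC class II genes. The cholesterol synthesis list mostly fell, as given below, so the letters were not particular to lists that rose. The promoters of Ctsd (chr7:142387828-142388077, minus strand) and Lamp1 (chr8:13158911-13159160, plus strand), which encodes an abundant lysosomal membrane protein, are printed because they hold 2 and 4 copies, in capitals. Gpnmb (chr6:49036268-49036517, plus strand) and Trem2 (chr17:48346151-48346400, plus strand) are printed beside them as the genes that chose the cells, and these windows hold no CACGTG. A match is a description of letters, not a bound site.
Ctsd: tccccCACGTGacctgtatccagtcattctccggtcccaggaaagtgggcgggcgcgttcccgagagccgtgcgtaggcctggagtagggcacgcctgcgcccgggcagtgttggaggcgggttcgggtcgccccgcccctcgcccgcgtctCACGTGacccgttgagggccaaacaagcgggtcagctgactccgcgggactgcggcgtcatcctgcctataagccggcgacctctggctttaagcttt
Lamp1: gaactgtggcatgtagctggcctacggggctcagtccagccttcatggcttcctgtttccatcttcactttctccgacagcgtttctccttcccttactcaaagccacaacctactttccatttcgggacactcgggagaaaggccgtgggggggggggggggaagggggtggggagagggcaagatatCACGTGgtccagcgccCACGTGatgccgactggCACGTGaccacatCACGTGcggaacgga
Gpnmb: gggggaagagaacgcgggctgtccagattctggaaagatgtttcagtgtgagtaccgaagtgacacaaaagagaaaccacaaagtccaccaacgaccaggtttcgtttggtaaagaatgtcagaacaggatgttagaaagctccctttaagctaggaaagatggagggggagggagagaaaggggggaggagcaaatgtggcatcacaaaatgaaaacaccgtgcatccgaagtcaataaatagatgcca
Trem2: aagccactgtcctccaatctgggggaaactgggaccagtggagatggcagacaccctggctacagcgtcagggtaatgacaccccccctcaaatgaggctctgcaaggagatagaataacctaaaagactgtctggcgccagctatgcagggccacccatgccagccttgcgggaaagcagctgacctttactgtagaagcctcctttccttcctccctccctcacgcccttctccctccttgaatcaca

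Genes that take up and store lipid went in both directions. Of 13 tested, 5 rose and 3 fell, with a median of 0.18. Fabp5, a cytosolic fatty acid carrier, stood at 988, 1720, 1261, 985, 2579 and 1787 CPM, against 212, 348, 556, 449, 437 and 705 CPM, and rose by 1.81 ± 0.27 (adjusted p = 0.0065, higher in 6 of 6). The Fabp5 call was lost after thinning (1.45, adjusted p = 0.084) and with cells carrying dendritic or monocyte markers left out (1.55, adjusted p = 0.092). It had the highest fold change among the genes chosen by size (FDR below 0.05, at least 100 CPM in the higher class, and the same direction in all 6 libraries). Plin2, which coats lipid droplets, stood at 737, 732, 1030, 1071, 997 and 847 CPM, against 409, 430, 881, 811, 534 and 563 CPM, and rose by 0.65 ± 0.09 (adjusted p = 0.00022). The endocytic receptor Lrp1 rose by 0.46 ± 0.07 (adjusted p = 0.00019). Among the lower genes was the oxidised lipoprotein receptor Olr1, which fell by 1.12 ± 0.30 (adjusted p = 0.041) from 12.4 to 59.3 CPM in other macrophages to 2.18 to 45.6 CPM.

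Among 12 genes of cholesterol transport and efflux, 5 rose and 1 fell, with a median of 0.46. Nceh1, which hydrolyses cholesterol esters, stood at 91.4, 103, 43.5, 44.6, 122 and 123 CPM, against 38.2, 45.3, 28.3, 22.5, 54.7 and 66.7 CPM, and rose by 1.06 ± 0.09 (adjusted p = 1.3e-06). Apoc2, the apolipoprotein that activates lipoprotein lipase, rose by 0.72 ± 0.14 (adjusted p = 0.0073), and both genes were higher in 6 of 6 libraries. Npc2, which moves cholesterol inside the lysosome, had a log2 fold change of 0.18 ± 0.07 (adjusted p = 0.062).

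Of 11 cholesterol synthesis genes tested, 0 rose and 10 fell, with a median of -0.69, while 1 of 9 fell after thinning. Cyp51, a demethylase late in the pathway, stood at 11.9, 7.40, 5.07, 4.63, 10.1 and 7.26 CPM, against 24.6, 23.9, 16.4, 17.3, 26.1 and 16.3 CPM, and fell by 1.40 ± 0.13 (adjusted p = 5.3e-06). Srebf2, the transcription factor that drives the pathway, fell by 0.51 ± 0.11 (adjusted p = 0.0032). Cyp51 was lower in 6 of 6 libraries and Srebf2 in 5 of 6. Levels were low, and with cells carrying dendritic or monocyte markers left out 4 of 11 fell, while 3 of 10 fell among cells of 10 or more C1q UMIs. After thinning Cyp51 had -0.72 (adjusted p = 0.21).

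The letters CACCCCAC, the core of the sterol element that SREBP2 reads, were found on either strand in 1 of 7 matched promoters of this list, that of Hmgcs1, and in 2.98% of all genes of the table. They were also found in 1 of 8 V-ATPase genes (Atp6v0c), and in 0 of 17 lysosomal and 0 of 4 MHC class II genes. Hmgcs1, the synthase at the start of the pathway, fell by 0.43 ± 0.11 (adjusted p = 0.0094), and its promoter (chr13:119690101-119690350, plus strand, GRCm38.p6) is shown with the letters in capitals.
Hmgcs1: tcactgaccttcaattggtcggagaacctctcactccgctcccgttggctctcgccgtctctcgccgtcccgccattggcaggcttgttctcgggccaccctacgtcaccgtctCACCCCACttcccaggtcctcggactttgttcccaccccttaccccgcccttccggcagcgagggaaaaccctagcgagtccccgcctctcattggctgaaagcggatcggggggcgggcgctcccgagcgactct

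Antigen presentation genes had the lowest median of the 17 lists plotted. All 7 MHC class II genes tested fell, with a median of -1.88. H2-Ab1, a chain of the class II molecule, stood at 309, 478, 233, 255.7, 948 and 968 CPM, against 2341, 1762, 749, 1132, 3623 and 2162 CPM, and fell by 1.93 ± 0.23 (adjusted p = 0.0023). Cd74, the invariant chain, stood at 1186, 1593, 1241, 1301, 3505 and 3259 CPM, against 6515, 5286, 2573, 3906, 10340 and 6124 CPM, and fell by 1.52 ± 0.21 (adjusted p = 0.0040). Ciita, the activator of class II transcription, fell by 2.09 ± 0.14 (adjusted p = 2.45e-07). Within the Trem2 Gpnmb macrophages class II levels were highest at 72 h, and they were below the other macrophages in 6 of 6 libraries for each of these 3 genes. After thinning, H2-Ab1 had a log2 fold change of -0.78 (adjusted p = 0.34) and Cd74 of -0.61 (adjusted p = 0.38).

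Markers of dendritic cells and monocytes moved with this result. The 7 dendritic cell markers summed to 1.38 to 9.13 CPM in Trem2 Gpnmb macrophages and 85.1 to 117 CPM in other macrophages, all 3 tested fell, and Xcr1 was at 0 in every library of Trem2 Gpnmb macrophages. The 6 non-classical monocyte markers summed to 32.9 to 130 CPM against 161 to 303 CPM, and 4 of 5 tested fell. The 7 classical monocyte markers summed to 1627 to 5266 CPM against 3380 to 6354 CPM, and 3 of 7 fell. With cells carrying such markers left out of both classes, 3 of 7 class II genes fell at a median of -1.34. Among cells with 10 or more C1q UMIs, all 7 fell at a median of -1.63. Over all genes, 763 and 483 fell in these settings.

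Complement C1q, a marker of differentiated macrophages that binds dying cells, was higher. Of 8 complement genes 5 rose and 2 fell, with a median of 0.57. C1qb stood at 1489, 1377, 1338, 1234, 3443 and 3190 CPM, against 837, 984, 633, 680, 980 and 1498 CPM, and rose by 1.05 ± 0.15 (adjusted p = 0.0020). C1qa and C1qc rose by 0.98 each (adjusted p = 0.026 and 0.011). The C1qa call was lost without the WT 24 h, KO 24 h or KO 72 h ligation library (adjusted p = 0.075, 0.060 and 0.068). Among genes for uptake of dead cells, 4 of 11 rose and 2 fell, with a median of 0.08. The scavenger receptor Stab1 rose by 1.01 ± 0.20 (adjusted p = 0.014) and the integrin Itgb5 by 0.76 ± 0.08 (adjusted p = 1.8e-05), while Gas6, a bridging ligand of the TAM receptors, stood at 12.2, 21.2, 7.97, 3.15, 87.7 and 73.3 CPM with a log2 fold change of 1.24 ± 0.52 (adjusted p = 0.15).

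The TREM2 signalling genes were not called higher, while the gap in Trem2 between the classes was set by the rule. Of 7 tested, 0 rose and 2 fell, with a median of -0.13. Tyrobp, the adaptor of TREM2, stood at 2261, 2118, 2524, 2675, 2832 and 2813 CPM, against 2368, 2359, 2684, 3089, 3551 and 2959 CPM, a log2 fold change of -0.13 ± 0.06 (adjusted p = 0.14), and the kinase Syk fell by 0.23 ± 0.07 (adjusted p = 0.032, and 0.11 in DESeq2).

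The list of genes known from lipid-associated macrophages of fat and disease-associated microglia was split, with 5 of 15 higher and 2 lower at a median of 0.49. Spp1, the secreted protein osteopontin, stood at 10932, 10349, 7790, 13130, 5850 and 4458 CPM, against 2790, 3285, 3966, 4630, 708 and 1519 CPM, and rose by 1.80 ± 0.28 (adjusted p = 0.0083, higher in 6 of 6). Lgals1 rose by 0.82 ± 0.10 (adjusted p = 0.00019), and Lgals3 had a log2 fold change of 0.43 ± 0.15 (adjusted p = 0.079). Both encode galectins, which bind sugar chains. Against the name of the list, Cst7, an inhibitor of cathepsins, fell by 2.09 ± 0.27 (adjusted p = 7.9e-05), at 0 to 2.91 CPM against 1.89 to 9.43 CPM. Itgax, the integrin CD11c, fell by 1.05 ± 0.13 (adjusted p = 6.4e-05).

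Of 9 heme and iron genes 4 rose and 0 fell, with a median of 0.58. Ftl1, the ferritin light chain, stood at 10690, 12975, 10625, 15098, 20360 and 17118 CPM, against 5822, 7388, 8405, 10565, 8790 and 9946 CPM, and rose by 0.78 ± 0.10 (adjusted p = 0.00030). Slc48a1, a heme transporter of the lysosome, rose by 0.79 ± 0.16 (adjusted p = 0.0088). The ferritin heavy chain gene Fth1 had a log2 fold change of 0.54 ± 0.18 (adjusted p = 0.072).

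Inflammatory genes were mostly lower, with 1 of 15 higher and 9 lower at a median of -0.34. Il1b, a cytokine of early inflammation, stood at 424, 266, 661, 458, 158 and 339 CPM, against 711, 579, 1260, 1107, 824 and 833 CPM, and fell by 1.27 ± 0.24 (adjusted p = 0.016, lower in 6 of 6), or by 1.45 with cells carrying dendritic or monocyte markers left out (adjusted p = 0.076). Cxcl1, a neutrophil attractant, fell by 2.08 ± 0.25 (adjusted p = 0.00015). The exception was the monocyte attractant Ccl2, which stood at 2825, 5051, 6526, 5827, 1528 and 1175 CPM, against 1352, 2979, 4861, 4442, 764 and 960 CPM, and rose by 0.68 ± 0.12 (adjusted p = 0.0034, and a log2 fold change of 0.15 at 0.099 after thinning). The related chemokine Ccl12, from outside the list, rose by 1.33 ± 0.25 (adjusted p = 0.016, and 0.052 without the WT sham library).

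Repair and hypoxia genes went in both directions, and the interferon-induced and dissociation lists held more lower than higher calls. Of 13 repair and growth factor genes 4 rose and 2 fell, with a median of 0.02. Arg1, the arginase of repair macrophages, stood at 2136, 2906, 3427, 4148, 634 and 696 CPM, against 1552, 1995, 2916, 2786, 404 and 634 CPM, and rose by 0.46 ± 0.07 (adjusted p = 0.00028), but had a log2 fold change of -0.37 with cells carrying dendritic or monocyte markers left out. The growth factor gene Igf1 had 1.14 ± 0.59 (adjusted p = 0.23). Of 14 hypoxia and glycolysis genes 3 rose and 3 fell, with a median of 0.02, of 13 interferon-induced genes 1 rose and 5 fell, with a median of -0.34, and of 15 genes that respond to tissue dissociation 0 rose and 6 fell, with a median of -0.23. Among 11 proliferation genes edgeR called 0 (1 higher and 0 lower at an unadjusted p under 0.05) and DESeq2 called 1 higher, with a median of 0.26. The remaining genes chosen by size were Rnase4, Rab3il1 and C1qc on the higher side, and Ifitm1, H2-Eb1, H2-Aa, H2-DMb1, Ifitm6, Napsa, Cytip and Gm9733 on the lower side. Their log2 fold changes were 0.98 to 1.18 and -2.05 to -1.42.

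**Figure D3:**
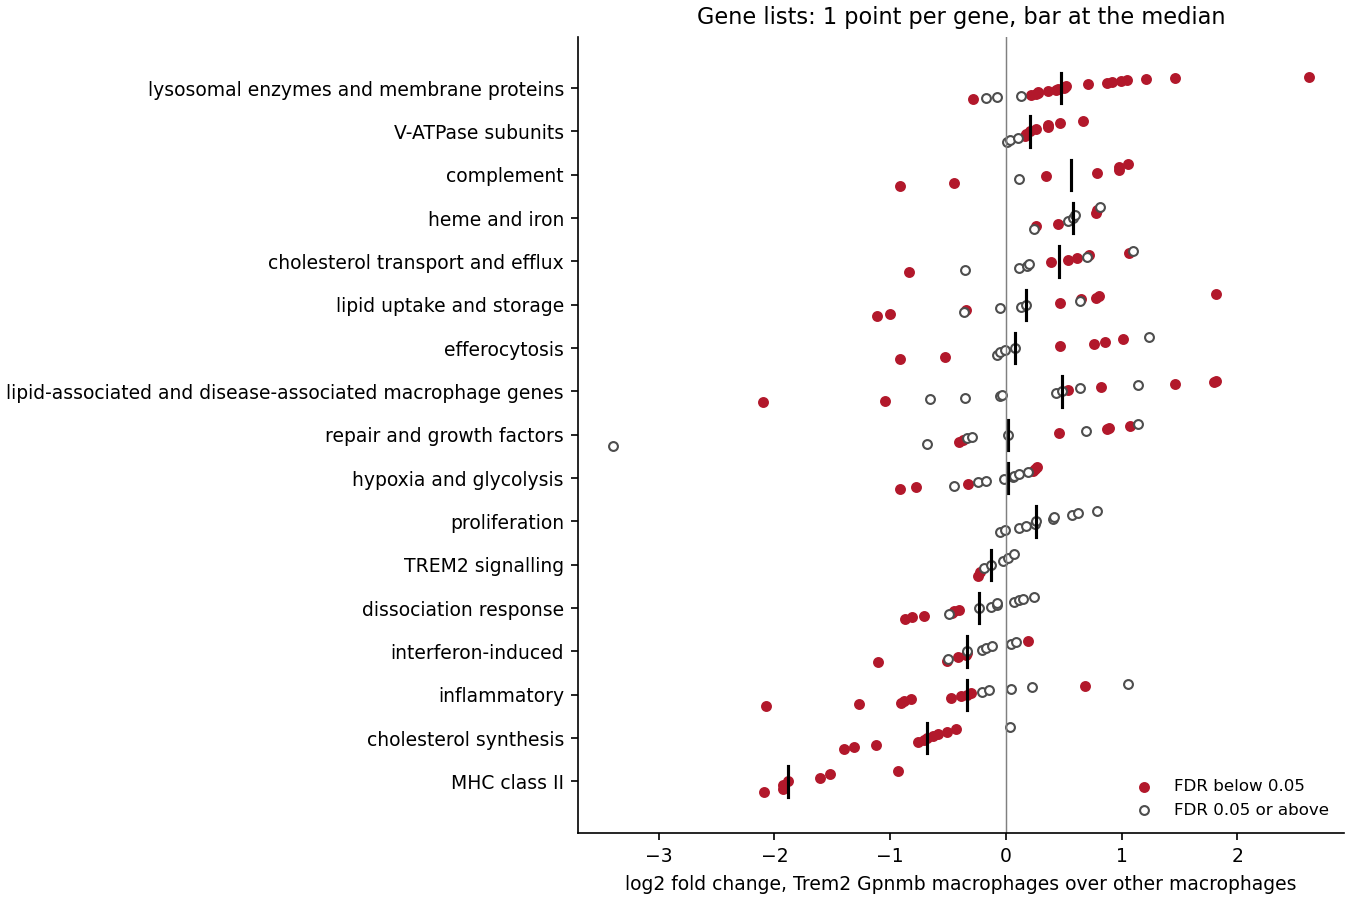
Log2 fold change of Trem2 Gpnmb macrophages over other macrophages for the tested genes of 17 lists (points; filled, adjusted p below 0.05; open, not; bars, list medians). Lysosomal genes lay mostly above 0 (median 0.48), and cholesterol synthesis and MHC class II genes below 0 (medians -0.69 and -1.88).

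Within the Trem2 Gpnmb macrophages, cells with a Gpnmb UMI were set beside those without. There were 35, 24, 4, 22, 425 and 171 cells with and 196, 116, 78, 340, 646 and 299 without. The genes were picked with the results above known, the 2 sides are of the same libraries, and ratios carry exact conditional Poisson intervals with no test. Cells without a Gpnmb UMI had to reach the minimum on Trem2 alone, so the rule chose the 2 sides differently. The intervals count UMIs and leave out the spread between cells. In WT at 72 h, Fabp5 stood at 4841 CPM in cells with and 854 CPM in cells without a Gpnmb UMI, a ratio of 5.67 (5.54 to 5.81). In KO at 72 h the levels were 3448 and 809 CPM, a ratio of 4.26 (4.06 to 4.47), and at sham the ratios were 9.32 (8.69 to 9.99) for WT and 5.71 (5.32 to 6.13) for KO. Fabp5, the fatty acid carrier, was thus higher on the Gpnmb side in these 4 libraries, and in KO at 24 h after ligation, with 22 cells on that side, the ratio was 2.56 (2.37 to 2.77).

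Ctsd had ratios of 2.13 in WT and 2.02 in KO at 72 h, and Ctsb had 1.97 and 1.92. Cd63 had 2.21 and 2.27. H2-Ab1 went the other way, at 361 CPM with and 1395 CPM without in WT (ratio 0.259, 0.249 to 0.270) and 606 and 1181 CPM in KO (0.513, 0.479 to 0.549). Fcrls was at 338 and 332 CPM in WT (1.02, 0.966 to 1.07) and 377 and 254 CPM in KO (1.49, 1.34 to 1.65), so it did not follow Gpnmb in WT. Depth was close on both sides, with medians of 15736 and 13541 UMIs in WT and 10530 and 9577 UMIs in KO at 72 h, and its part was not tested. In WT at 24 h after ligation the Fabp5 ratio was 0.44 (0.29 to 0.64), the other direction, but the 4 cells with Gpnmb allow no reading.

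**Figure D4:**
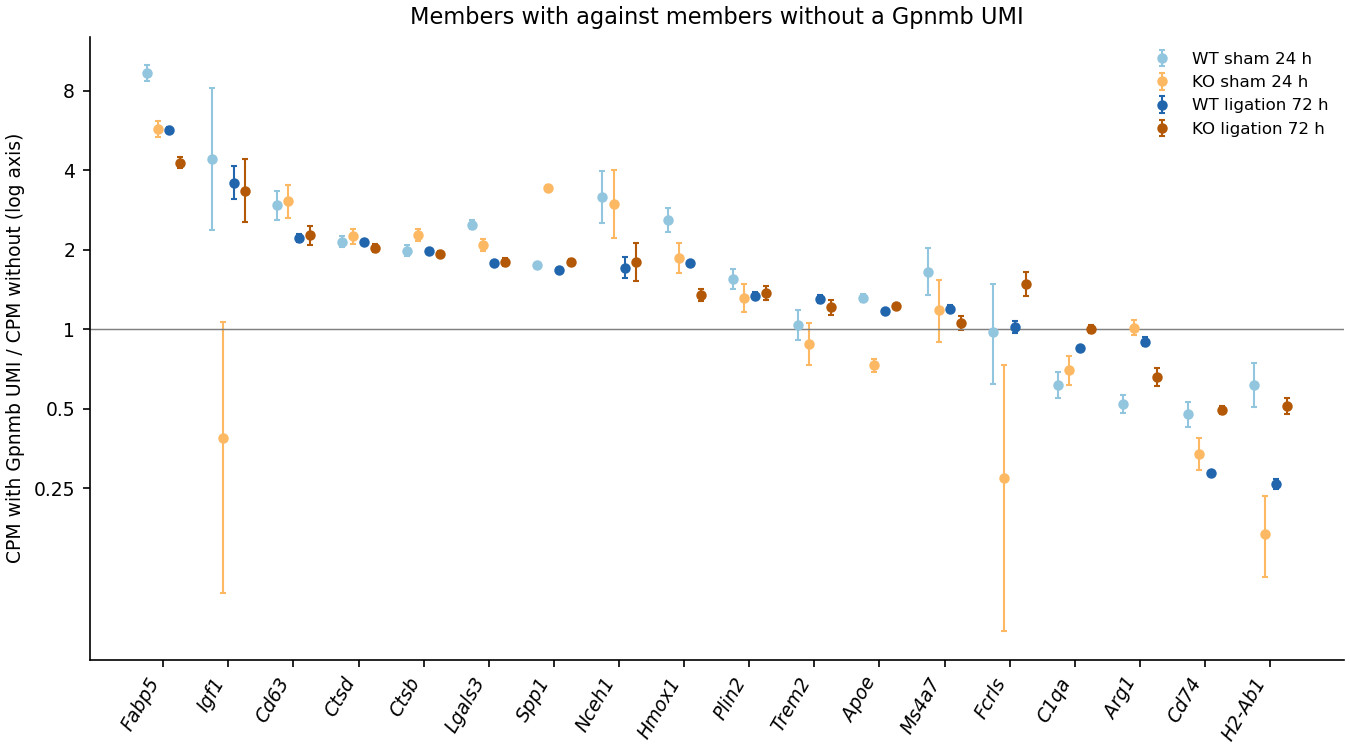
Ratio of CPM in Trem2 Gpnmb macrophages with a Gpnmb UMI to those without (log axis) for 18 genes in the sham and 72 h libraries; bars are exact 95% Poisson intervals. In these 4 libraries Fabp5 had ratios of 4.26 to 9.32, and H2-Ab1 and Cd74 lay below 1.

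Between libraries, a gene is called here where its CPM in Trem2 Gpnmb macrophages differed at least 2-fold with a 95% interval that leaves out 1, for genes with 50 or more UMIs over the pair. No p-value was computed. Each library enters more than 1 of these comparisons, those of 24 h after ligation 3 each, so the comparisons share libraries and their values are given side by side only. In these summed counts, fewer cells with a transcript and less transcript per cell cannot be told apart.

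The targeted gene gave few UMIs. Trpm4 stood at 7.46, 9.52, 7.25, 4.63, 4.12 and 2.49 CPM, from 27, 18, 10, 25, 70 and 12 UMIs. At 72 h the KO to WT ratio was -0.73 on the log2 scale (-1.75 to 0.17). A difference in genotype was not detectable at this depth, and it is not known here whether the 3′ end that is read lies in the deleted stretch.

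From 24 h to 72 h after ligation, Trem2 Gpnmb macrophages differed in more genes than in any other pair of libraries compared. In WT 863 of 9519 genes (9.07%) were called higher and 556 (5.84%) lower at 72 h, and in KO 556 of 8442 (6.59%) were higher and 290 (3.44%) lower. Other macrophages had 489 higher and 598 lower of 9107 genes in WT, and 966 higher and 277 lower of 9843 in KO. Ms4a7 had the highest ratio in WT among genes chosen by size (at least 200 CPM and 20% of cells in the higher library), at 76.8 CPM at 24 h and 1012 CPM at 72 h, a log2 ratio of 3.72 (3.44 to 4.01). In KO it had 3.40 (3.26 to 3.54). Fcrls had 3.33 in WT and 3.54 in KO, and Ckb, the creatine kinase B gene, 3.10 and 2.63. Other macrophages also differed in these 3 genes, with log2 ratios of 2.67, 2.08 and 2.44 in WT and 3.18, 3.68 and 1.89 in KO.

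At the lower end were chemokine and monocyte genes. Ccl24, an eosinophil attractant, went from 1179 to 21.0 CPM in WT, a log2 ratio of -5.81, and from 1017 to 70.8 CPM in KO, -3.84. Vcan, the proteoglycan versican of monocytes, went from 671 to 18.2 CPM in WT (-5.20) and from 321 to 32.0 CPM in KO (-3.33). Wfdc21 had -5.29 and -5.42, and Cxcl3, a neutrophil attractant, -4.43 and -5.20. Thinned to 2000 UMIs, 51.2% of WT cells had a Vcan UMI at 24 h and 2.99% at 72 h. Other macrophages had smaller log2 ratios for Vcan (-2.47 and -2.08) and Ccl24 (-3.72 and -2.86).

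By list, 12 of 13 inflammatory genes were called lower at 72 h in WT (median -2.07) and 7 of 12 in KO (-1.24), and none higher, beside all-gene medians of 0.05 and 0.10. The same genes had medians of -2.65 and -1.20 in other macrophages, and dissociation genes were called lower in 8 of 15 (-1.01) and 1 of 15 (-0.33). Il1b went from 661 to 158 CPM in WT and from 458 to 339 CPM in KO. Proliferation genes were called higher in 13 of 14 (median 3.11) in WT and 9 of 11 (2.24) in KO, with medians of 1.72 and 3.54 in other macrophages. Mki67 went from 2.17 to 40.1 CPM and from 3.15 to 24.3 CPM. Thinned to 2000 UMIs, 3.73% (2.68 to 5.05) and 3.03% (1.67 to 5.03) of cells had a Mki67 UMI at 72 h. A Mki67 UMI was thus found in few cells at that depth.

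Lysosomal genes were higher at 72 h in 11 of 22 in WT (median 1.03) and 4 of 21 in KO (0.65), where 1 was lower. The same genes had medians of 0.54 and 0.36 in other macrophages. Ctsb went from 1502 to 4978 CPM in WT and from 1817 to 4247 CPM in KO, log2 ratios of 1.73 and 1.23. MHC class II genes were called higher in 5 of 7 (1.88) and 6 of 7 (1.32), cholesterol transport genes in 6 of 12 (1.02) and 7 of 12 (1.02), and hypoxia and glycolysis genes were called lower in 5 of 14 (-0.73) and 10 of 14 (-1.08). In WT and KO, other macrophages had medians of 2.01 and 0.93 for class II genes and 0.82 and 0.72 for cholesterol transport. For hypoxia and glycolysis genes they had -1.12 and -1.13. For cholesterol synthesis 0 genes were called higher in either genotype and 1 lower in each, with medians of 0.11 and 0.39. Arg1 went from 3427 to 634 CPM in WT and from 4148 to 696 CPM in KO. Markers of other cell types moved with the time. Neutrophil markers were called lower at 72 h in 4 of 5 in WT, from a sum of 866 to 129 CPM, and in 3 of 6 in KO, from 838 to 411 CPM. Classical monocyte markers were called lower in 4 of 7 in each genotype (medians -2.35 and -1.84), and in KO 3 of 3 fibroblast and 2 of 2 hemoglobin genes were called higher. Of the cardiomyocyte list 5 of 6 measured genes in WT and 5 of 5 in KO were called higher at 72 h, with sums of 6.52 and 45.5 CPM in WT and 14.1 and 131 CPM in KO, and their part in the results was not tested.

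**Figure D5:**
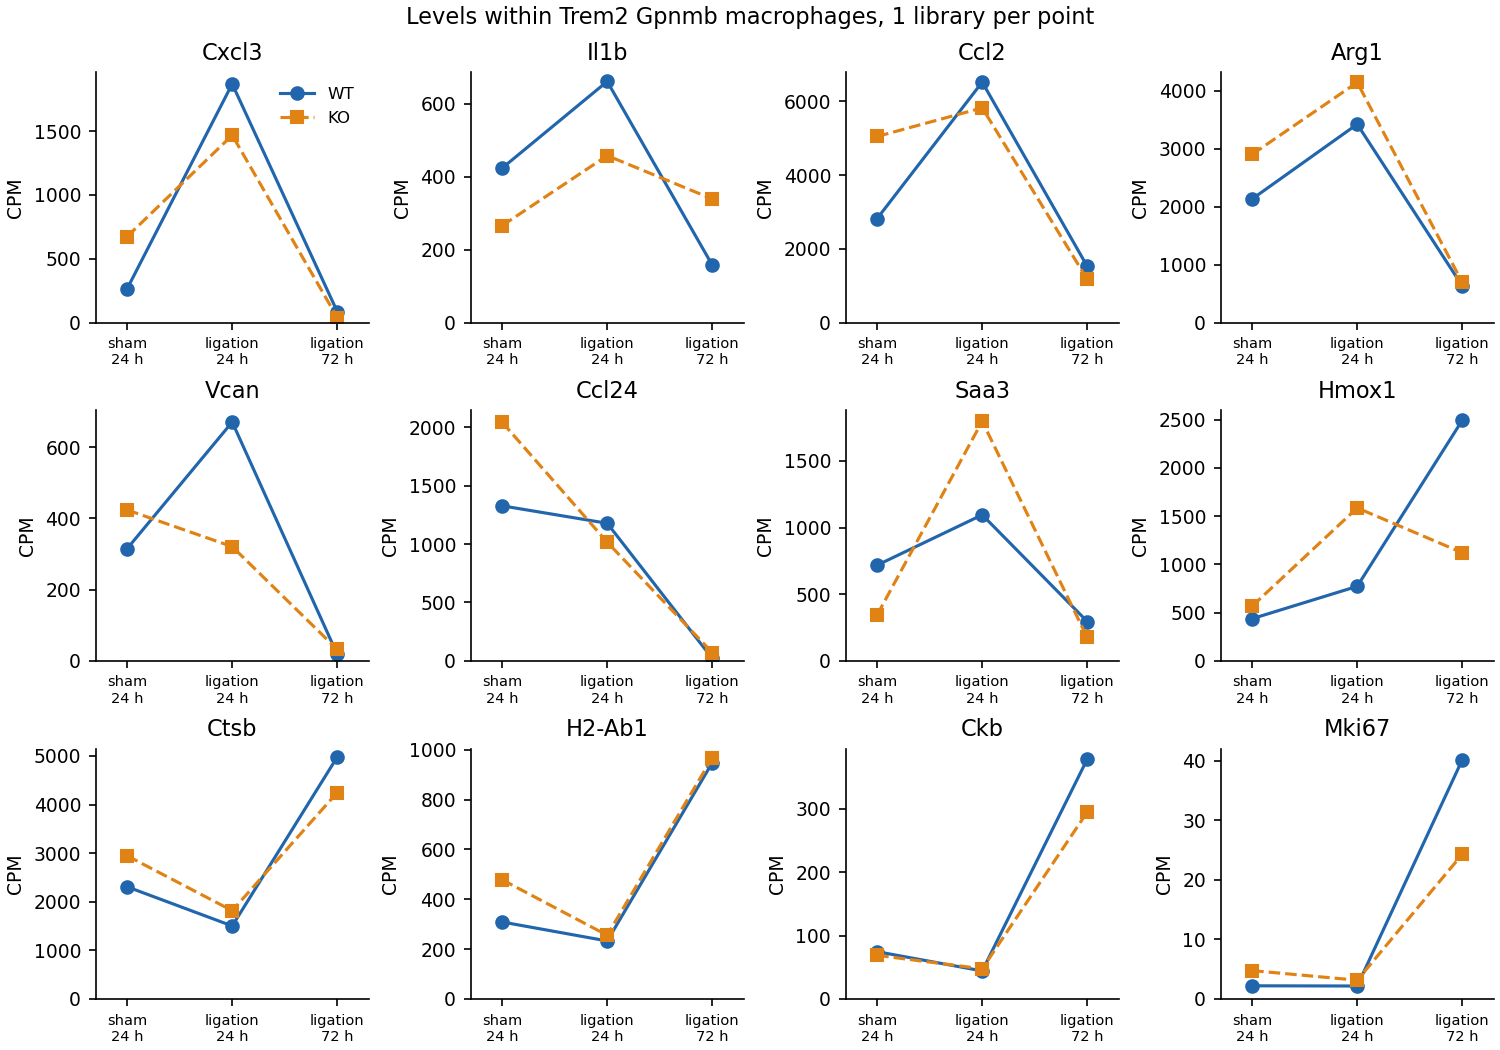
CPM of 12 genes within Trem2 Gpnmb macrophages in each library (circles, WT; squares, KO; lines join the libraries of a genotype and are no time course of sham mice). Cxcl3, Vcan, Ccl24 and Arg1 were lowest at 72 h, and Ctsb, H2-Ab1, Ckb and Mki67 highest.

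Ligation set against sham at 24 h gave fewer calls. In WT 130 of 6863 genes (1.89%) were called higher and 174 (2.54%) lower, and in KO 100 of 7592 (1.32%) higher and 171 (2.25%) lower. Inflammatory genes were called higher in 8 of 13 in WT (median 1.35) and 1 of 14 in KO (0.18), with none lower. Cxcl3 went from 266 CPM at sham to 1869 CPM in WT, a log2 ratio of 2.81 (2.71 to 2.92), and from 674 to 1467 CPM in KO, 1.12 (1.04 to 1.21). The KO sham level was thus 2.54 times that of WT sham. Hilpda, a lipid droplet protein induced by hypoxia, had a log2 ratio of 2.14 in WT, and the secreted protein gene Wfdc21 had 2.05. Other macrophages had 3.04, 2.57 and 1.11 for these 3 genes in WT.

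In KO, Saa3, an acute-phase protein, went from 345 to 1798 CPM, a log2 ratio of 2.38 (2.27 to 2.50), against 718 and 1095 CPM in WT. AA467197 had 1.94 and the protease inhibitor Slpi 1.49. Lower were Gm42418 (-1.50), H2-Eb1 (-1.46) and Ahnak (-1.25), and the median of all genes was -0.12 in this pair. Gm42418 overlaps ribosomal RNA and had -1.59 in other macrophages. Neutrophil markers moved with ligation, at a sum of 333 and 336 CPM at sham and 866 and 838 CPM at 24 h after ligation, and their part was not tested.

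Between genotypes the numbers of calls in Trem2 Gpnmb macrophages were small in each condition. At sham, 51 of 7151 genes (0.713%) were higher and 53 (0.741%) lower in KO. Other macrophages had 77 higher and 52 lower of 9119 genes. Mmp19, a matrix metalloproteinase, was at 89.2 CPM in WT and 259 CPM in KO, a log2 ratio of 1.54 (1.33 to 1.74), Cxcl3 had 1.34 (1.22 to 1.47) and Pdia4, a chaperone of the endoplasmic reticulum, 1.05 (0.85 to 1.24). Other macrophages went the same way, with 0.57 for Mmp19, 0.49 for Cxcl3 and 0.57 for Pdia4. Saa3 was lower at -1.06 (-1.18 to -0.93), where other macrophages had 0.57. Smooth muscle markers had sums of 13.8 CPM (WT) and 129 CPM (KO), and their part was not tested.

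At 24 h after ligation 88 of 7355 genes (1.2%) were higher and 133 (1.81%) lower in KO. Other macrophages had 35 higher and 132 lower of 9297 genes. Hmox1 was at 772 CPM in WT and 1585 CPM in KO, a log2 ratio of 1.04 (0.95 to 1.13), where other macrophages had 0.01. As a mean over cells it had 0.78, under the 2-fold call. The chemokine Ccl4 had -1.30 and lipoprotein lipase Lpl -1.28, with -1.10 and -1.39 in other macrophages, so both classes were lower in KO. Inflammatory genes were called lower in 6 of 14 (median -0.87) and higher in none, beside an all-gene median of -0.08 and a median of -0.57 for the same genes in other macrophages. Dissociation genes had a median of -0.49 with 0 of 15 above 0, smooth muscle markers summed to 22.5 CPM (WT) and 87.8 CPM (KO) with 3 of 3 called higher, and their part was not tested.

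At 72 h, 115 of 9781 genes (1.18%) were higher and 114 (1.17%) lower in KO. Other macrophages had 565 higher and 36 lower of 9647 genes. In KO these other macrophages were shallow (median 2116.5 UMIs) and carried hemoglobin and fibroblast transcripts, as given above. Their values at 72 h, set beside those of Trem2 Gpnmb macrophages, carry this limit. Hmox1 now went the other way, at 2493 CPM in WT and 1121 CPM in KO, a log2 ratio of -1.15 (-1.19 to -1.11), where other macrophages had -0.06. After thinning it had -0.90 and as a mean over cells -0.91, under the 2-fold call. Il1b was at 158 CPM in WT and 339 CPM in KO, 1.10 (1.01 to 1.19), where other macrophages had 0.02. An Il1b UMI was found in 27.5% of WT and 52.6% of KO cells. The WT cells were deeper, and the part of depth was not tested. Lars2 had 1.42, with 1.36 in other macrophages. Proliferation genes were called lower in 7 of 14 (median -0.94) and higher in none, where other macrophages had a median of 1.11 for the same genes. Apoe was at 15861 and 16243 CPM, and 0 of 12 cholesterol transport genes, 1 of 22 lysosomal genes and 0 of 7 MHC class II genes were called, the lysosomal gene lower in KO. Markers of other cell types moved with genotype at 72 h, and their part was not tested. Neutrophil markers, called higher in KO in 3 of 6 (median 1.33), summed to 129 CPM (WT) and 411 CPM (KO). Hemoglobin genes summed to 3.89 and 72.0 CPM, fibroblast markers to 4.77 and 117 CPM and cardiomyocyte markers to 45.5 and 131 CPM, and 3 of 5 non-classical monocyte markers were higher in KO (median 1.06). Dissociation genes were called higher in 3 of 15 (median 0.34).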

How the data were processed

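The authors deposited 6 matrices of raw UMI counts, 1 per library, made with Cell Ranger 6.0.0 on mm10, per the submitters' processing notes. Later filters are not given in the sources used here, and the lowest total among deposited cells was 500 UMIs. Libraries held 20995280 to 45649061 UMIs. The members and gene lists were chosen with earlier results of these data known. Counts were summed over cells per library and class and tested with edgeR 4.0.16 (quasi-likelihood, TMM, library as a term, filterByExpr, Benjamini-Hochberg threshold of 0.05), without the 18 genes of the rule. DESeq2 1.42.0 was an alternative. On simulated counts of this comparison (10251 genes) the test recovered 100% of genes changed by 1 and 62% of those changed by 0.5 on the log2 scale, with 6 false calls. The simulation gave all genes the same dispersion and each changed gene the same change in every library. These rates therefore need not hold for the real counts. Each pool counts as 1 replicate. With the library as a term, p-values measure how the difference between classes varied over the 6 libraries, which are of different groups. Doublets were scored with Scrublet in scanpy 1.11.5 at 0.8% per 1000 cells and kept, with leaving them out as an alternative; 81 Trem2 Gpnmb macrophages (3.44%) were marked. CPM are UMIs scaled to the sum of the class in a library. Ratios between libraries have exact conditional Poisson 95% intervals, with a count of 0 set to 3.

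Genes were named by size, the 15 highest and 10 lowest past the threshold at 100 CPM or more with 1 direction in every library, and the 3 highest and 3 lowest called per pair of libraries at 200 CPM and 20% of cells or more, without mitochondrial, ribosomal protein and hemoglobin genes. From each list the 3 most abundant and the 2 with the largest fold change were eligible. Laptm5, Itgax, Lamp1, Hmgcs1, Mki67 and the genes set beside Gpnmb were added after their values were seen. The list genes Clec7a and Mx1 were not analysed here, and some genes that the rule names are not reported here. Promoters are RefSeq windows.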

Additional observations from a re-analysis of the deposited data

Results flagged for a closer look

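Some genes differed at least 2-fold between KO and WT Trem2 Gpnmb macrophages in opposite directions in 2 conditions, with intervals that leave out 1. With 1 library per group, none of these differences between conditions was tested. Hmox1 had a log2 ratio of KO to WT of 1.04 at 24 h and -1.15 at 72 h after ligation, and 0.01 and -0.06 in other macrophages. The other macrophages of KO at 72 h were shallow, as given above, which limits their values here. As a mean over cells, both Hmox1 ratios were under the 2-fold call, as given above. Cxcl3 had 1.34 at sham and -1.11 at 72 h. Ccl3, a chemokine, had 1.07 at sham and -1.02 at 24 h after ligation. Vegfa, an angiogenic factor, had -1.12 at 24 h and 1.48 at 72 h after ligation, with -0.75 and 1.41 in other macrophages. Cxcl10, an interferon-induced chemokine, had -2.27 at 24 h and 1.24 at 72 h after ligation, and Ear2 had -1.29 and 1.06, each from 26 to 140 UMIs per library. Olr1 had -2.18 at sham and 1.07 at 72 h, from 19 to 165 UMIs. At sham other macrophages had 0.49 for Cxcl3, 1.13 for Ccl3 and -0.96 for Olr1, the same directions.

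The time or ligation contrast went in opposite directions in the 2 genotypes for a pair of genes, again untested. Olr1 had a log2 ratio of ligation to sham at 24 h of -1.02 in WT and 1.03 in KO. Cxcl10 had a log2 ratio of 72 h to 24 h of -1.49 in WT and 2.02 in KO.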

How the results depend on the processing

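With 1 library per group, comparisons between libraries rest on counting error alone, and depth limits those that involve the KO library at 72 h. For the classes, genes rose and fell in 249 and 338 after thinning with the cells chosen anew, 205 and 341 without the library term, 645 and 763 with cells carrying dendritic or monocyte markers left out, and 335 and 483 among cells of 10 or more C1q UMIs; the last 2 settings, and the limit to 5000 to 20000 UMIs, were chosen after seeing the data. DESeq2 called 800 and 1027, and leaving out each library in turn gave 798 to 1135 and 1096 to 1391. Arg1 had -0.37 and -0.0063 in the 2 added settings on markers and C1q. The causes were not tested. Between groups, no paired analysis was possible because each has 1 library, while the comparison of classes within libraries had the library as a term.

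Shares of macrophages at a minimum of 6 UMIs were 13.7%, 9.69%, 6.07%, 11.9%, 44.4% and 12.6%, and after thinning 8.11%, 8.39%, 3.18%, 7.88%, 30.6% and 24.9%. In cells of 3000 or more UMIs the 72 h shares were 55.9% in WT and 40.2% in KO.

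Between libraries, thinning lowered the calls to 19 higher and 11 lower (KO against WT, sham), 41 and 36 (24 h), 36 and 47 (72 h), 43 and 24 (ligation against sham, WT), 51 and 55 (KO), 226 and 313 (72 h against 24 h, WT) and 181 and 158 (KO), with fewer genes measured. Relative to the median gene, 86 were lower in KO against WT at 24 h and 104 in ligation against sham in KO.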
